A study of Mus musculus with 18 samples.

Results

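Ccl2, Ccl7, Ccl8 and Ccl12 are the mouse genes of the monocyte chemoattractant proteins, a group of CC chemokines. They were selected by gene symbol, and each was read by 1 probe set of 22690 on the array, or 4 of the 12393 genes tested. None of these probe sets also named another gene.

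The signals came from 18 Affymetrix arrays of RNA from macrophages grown out of C57BL/6 mouse bone marrow, in 6 groups of 3. The marrow came from mice aged 4 to 6 weeks, and the cultures were fed with conditioned medium of L929, a fibroblast line whose secreted colony-stimulating factor drives macrophage growth. In the group SPIO-LPS, cells stood for 24 h with iron oxide particles of 33 nm (SPIO), were washed, and received LPS, the endotoxin of Escherichia coli, at 10 ng/ml for 4 h. In Silica-LPS the particles were amorphous silica of 50 nm, and in LPS the medium of the first day held no particles. The groups SPIO and Silica had the same particles but fresh medium without LPS, and CON had neither particles nor LPS. The labels give the times of 24 h and 4 h for every group but CON, where both are blank. Whether CON went through the same incubation, wash and change of medium could not be told. Comparisons with CON, and both interactions, may include such a difference in handling, which was not tested. Below, the LPS response after plain medium means LPS minus CON. Both particles are labelled as given at 25 mg/ml, a concentration whose unit could not be checked against the arrays. The arrays of a group are labelled biological replicates. The labels used here do not say whether these were separate mice or separate dishes, so a p-value here covers the spread among these cultures, which may be technical. The comparisons address whether a particle changes the macrophage at rest and its later response to LPS.

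Values are log2 signals as deposited, and a difference of 1 is a 2-fold change. The macrophage markers Csf1r and Lyz2 had high signals in every group, with means of 13.59 to 13.95 for Csf1r and of 14.33 to 14.49 for Lyz2. Lyz2 lay near the highest signals of the arrays (14.48 to 14.62), where a change comes out too small. Of 13 monocyte and macrophage markers, 11 to 13 had a mean log2 signal of 7 or more in each group. Yet 10 of them fell and 2 rose in SPIO against CON, where 14.2% of all genes fell and 19.6% rose. Among markers of other cells, 11 or 12 of 15 of fibroblasts and stroma, 6 of 9 of neutrophils and 1 of 4 of B cells had a mean log2 signal of 7 or more in each group. Of 5 endothelial markers 1 reached that level in LPS, and none did in the other groups. Markers of dendritic cells and of T and NK cells had no gene at that level in any group. Over all probe sets, pairs of arrays within a group had correlations of 0.9971 to 0.9986, and pairs from different groups had 0.9462 to 0.9979. The median 95% interval of a difference between groups of 3 reached 0.17 to either side. The difference between the 3′ and 5′ probe sets of Gapdh, a measure of RNA integrity and labelling, averaged 0.40 in SPIO-LPS, 0.43 in Silica-LPS, 0.52 in LPS, 0.47 in SPIO, 0.56 in Silica and 0.69 in CON. The same difference for Actb ran the other way among the groups with LPS, at 0.52 in SPIO-LPS, 0.44 in Silica-LPS and 0.38 in LPS, and was 0.66 in SPIO, 0.62 in Silica and 0.59 in CON. The part of these differences in the results was not tested. The arrays measured whole cultures, so that fewer cells making a chemokine and less of its RNA per cell cannot be told apart.

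Monocyte chemoattractant proteins are secreted by macrophages, fibroblasts and endothelial cells in response to microbial products and cytokines, and they draw blood monocytes into inflamed tissue. CCL2 and CCL12 act through the receptor CCR2, which also lets monocytes leave the bone marrow. CCL7 binds CCR1 and CCR3 besides CCR2, and mouse CCL8 acts through CCR8, a receptor of T helper cells. LPS is sensed by Toll-like receptor 4 with its partners CD14 and MD-2, and its signal reaches these genes through NF-kB and, for some of them, through secreted type I interferon.

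The genes lie side by side on mouse chromosome 11. In the RefSeq gene table the protein-coding genes follow each other in the order Ccl2, Ccl7, Ccl11, Ccl12, Ccl8 and Ccl1. RefSeq promoter sequences (build GRCm38.p6) were at hand for 2 of the 4 genes, the neighbours Ccl12 and Ccl8. They are shown because no others were at hand, and these neighbours had the widest and the narrowest LPS response of the group. Each is the 250 bases before the start site, 5′ to 3′ on the plus strand, from chr11:82101595-82101844 for Ccl12 and chr11:82114935-82115184 for Ccl8. Capitals mark the letters TATAAA of a TATA box.
Ccl12: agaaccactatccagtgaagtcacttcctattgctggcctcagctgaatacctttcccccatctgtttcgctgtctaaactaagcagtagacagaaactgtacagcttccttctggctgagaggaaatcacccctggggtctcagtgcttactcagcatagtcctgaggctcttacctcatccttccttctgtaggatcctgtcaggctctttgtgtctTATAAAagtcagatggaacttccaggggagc
Ccl8: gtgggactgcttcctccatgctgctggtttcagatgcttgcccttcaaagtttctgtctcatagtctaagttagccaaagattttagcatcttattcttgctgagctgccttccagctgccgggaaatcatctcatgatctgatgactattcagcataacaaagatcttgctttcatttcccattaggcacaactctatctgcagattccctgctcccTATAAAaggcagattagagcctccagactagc

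The TATAAA began 31 bases before the start site in Ccl12 and 32 bases before it in Ccl8. Of 32536 distinct promoter sequences of the same length, 12.3% held these letters on either strand. Searched on both strands, neither promoter held the other motifs tried. These were the kappaB consensus (in 3.92% of promoters), TGANTCA of AP-1 (6.73%), TTCNNNGAA of the STAT-bound GAS element (7.04%), the interferon-stimulated response element (2.98%) and TTGCNNAA of C/EBP (9.57%). A global alignment gave 57.5% identical columns between Ccl12 and Ccl8, against 52.9% between Ccl12 and the neighbour Ccl1 and 51.0% between Ccl8 and Ccl1.

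LPS raised all 4 chemokines, each by more than the spread between arrays. Ccl12 rose 112-fold, Ccl2 23.1-fold, Ccl7 20.7-fold and Ccl8 4.34-fold. In CON the Ccl12 signal lay near the lower end of the scale, so its fold change is understated.

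The 3 LPS arrays gave 10.91, 10.94 and 10.96 for Ccl12, against 4.07, 4.24 and 4.07 in CON. Ccl2, the founding member of the group, gave 12.13, 12.12 and 11.90 in LPS, against 7.63, 7.45 and 7.48 in CON. Ccl7 gave 11.05, 10.96 and 10.91 in LPS, against 6.53, 6.59 and 6.69 in CON. In these genes the arrays of a group lay within 0.3 of each other, and several log2 units separated the groups. Ccl8 gave 7.48, 7.02 and 6.82 in LPS, against 5.02, 5.02 and 4.92 in CON. Its LPS arrays were the most scattered of the group and still lay apart from CON.

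In limma's model over all genes, the difference of LPS minus CON was 6.81 ± 0.11 (SE) for Ccl12 (adjusted p = 3.57e-17) and 4.53 ± 0.09 for Ccl2 (adjusted p = 4.13e-16). It was 4.37 ± 0.10 for Ccl7 (adjusted p = 1.4e-15) and 2.12 ± 0.13 for Ccl8 (adjusted p = 3.66e-10). The size of the rise therefore differed widely within this family of neighbouring genes. Among all genes ordered by the size of this difference, Ccl12 stood at place 11, Ccl2 at 53, Ccl7 at 55 and Ccl8 at 256. All 4 were called higher, in a comparison that called 22.2% of genes higher, and their median difference was 4.45, against -0.01 over all genes tested. The arrays of LPS and CON did not overlap in any of them, which held for 63.3% of all genes. Over all genes the comparison called 2747 higher and 4469 lower, and with cyclic loess between arrays 3272 and 3620.

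**Figure D1:**
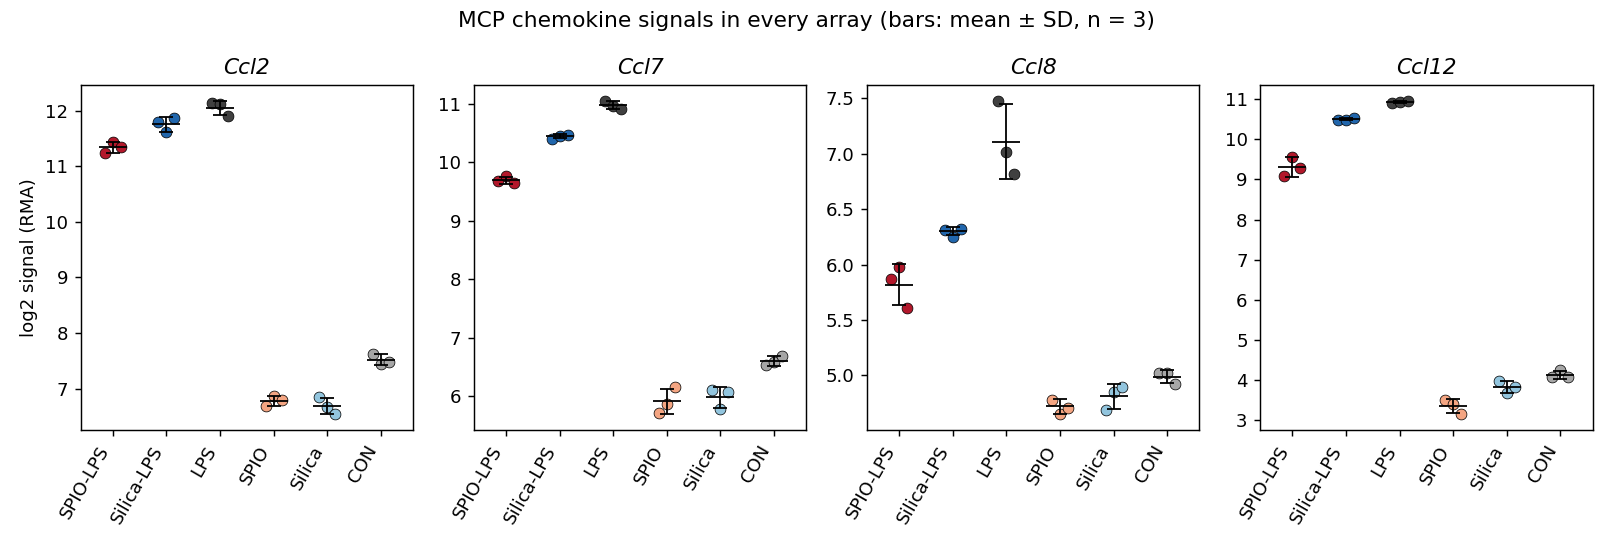
Log2 signal (RMA, vertical axis, its own range in each panel) of Ccl2, Ccl7, Ccl8 and Ccl12 in every array of the 6 groups, with bars for the mean ± SD of 3 arrays. The LPS arrays stand highest in every panel, followed by Silica-LPS and SPIO-LPS, and the 3 groups without LPS lie below them, with Ccl12 between 3.15 and 4.24.

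Iron oxide without LPS lowered Ccl2, Ccl7 and Ccl12, and silica without LPS lowered Ccl2 and Ccl7. The falls were 1.5- to 1.8-fold. Ccl8 did not pass the test after either particle. Both comparisons share the 3 CON arrays, so a high or low CON array moves both alike.

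Ccl2 gave 6.68, 6.86 and 6.79 in SPIO, 6.85, 6.67 and 6.55 in Silica, and 7.63, 7.45 and 7.48 in CON. All particle arrays lay below all CON arrays. The difference from CON was -0.74 ± 0.09 for SPIO (1.68-fold lower, adjusted p = 1.06e-05) and -0.83 ± 0.09 for Silica (1.78-fold lower, adjusted p = 0.000197). In the silica comparison only 3 genes had a more negative difference than Ccl2.

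Ccl7 gave 5.72, 5.86 and 6.15 in SPIO, 6.10, 5.78 and 6.07 in Silica, and 6.53, 6.59 and 6.69 in CON. Again no particle array reached a CON array, although the arrays of SPIO spread more widely than those of CON. Ccl7 fell by 0.69 on the log2 scale in SPIO (SE 0.10, adjusted p = 4.13e-05) and by 0.62 in Silica (SE 0.10, adjusted p = 0.00207).

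Ccl12 gave 3.50, 3.40 and 3.15 in SPIO, 3.98, 3.68 and 3.82 in Silica, and 4.07, 4.24 and 4.07 in CON. These signals lay near the lower end of the scale, where the lowest probe sets of the arrays read 2.03 to 2.22 and a fold change is understated. The difference from CON was -0.78 ± 0.11 for SPIO (1.71-fold lower, adjusted p = 4.25e-05) and -0.30 ± 0.11 for Silica (adjusted p = 0.144), which was not called.

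Ccl8, also dim, gave 4.78, 4.65 and 4.71 in SPIO, 4.69, 4.85 and 4.90 in Silica, and 5.02, 5.02 and 4.92 in CON. The arrays did not overlap with CON, but the differences of -0.27 ± 0.13 for SPIO (adjusted p = 0.113) and -0.18 ± 0.13 for Silica (adjusted p = 0.506) did not pass. The SPIO difference of Ccl8 passed when SPIO and CON were fitted alone (adjusted p = 0.0104) and with array weights (adjusted p = 0.0492).

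Iron oxide thus gave 3 of 4 members called lower, where 14.2% of genes were called lower, and silica gave 2 of 4, where 1.57% were. The median difference of the members was -0.72 for SPIO, against -0.01 over all genes, and -0.46 for Silica, against 0.00 over all genes. Arrays that did not overlap were also common among all genes, at 47.6% for SPIO and 24.9% for Silica. The silica comparison called 304 genes higher and 194 lower, and with cyclic loess between arrays the split was 253 and 271.

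After iron oxide, LPS brought every member to a lower level than LPS alone. Ccl12 was 3.08-fold, Ccl8 2.44-fold, Ccl7 2.43-fold and Ccl2 1.63-fold lower in SPIO-LPS than in LPS. After silica the levels with LPS were lower by 1.75-fold for Ccl8, 1.45-fold for Ccl7 and 1.35-fold for Ccl12, and the Ccl2 difference did not pass. Both comparisons share the 3 LPS arrays.

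Ccl12 gave 9.09, 9.56 and 9.29 in SPIO-LPS, 10.48, 10.49 and 10.54 in Silica-LPS, and 10.91, 10.94 and 10.96 in LPS. The 3 groups formed separate bands, with SPIO-LPS the lowest and the most scattered. The difference from LPS was -1.62 ± 0.11 for SPIO-LPS (adjusted p = 1.42e-08), and only 11 genes had a more negative one. For Silica-LPS it was -0.44 ± 0.11 (adjusted p = 0.0435), just inside the threshold. Leaving out any of the 6 arrays ended that silica call, with adjusted p of 0.0766 to 0.136 at differences of -0.45 to -0.42.

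Ccl8 gave 5.87, 5.98 and 5.61 in SPIO-LPS, 6.31, 6.25 and 6.32 in Silica-LPS, and 7.48, 7.02 and 6.82 in LPS. Every LPS array was higher than every particle array. The difference from LPS was -1.29 ± 0.13 for SPIO-LPS (adjusted p = 9.62e-07). For Silica-LPS it was -0.81 ± 0.13 (adjusted p = 0.00248), the third most negative difference of that comparison. The silica call did not hold when Silica-LPS and LPS were fitted alone (adjusted p = 0.0879).

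Ccl7 gave 9.68, 9.76 and 9.64 in SPIO-LPS, 10.40, 10.45 and 10.46 in Silica-LPS, and 11.05, 10.96 and 10.91 in LPS. Its arrays were tight in each group and kept the same order of groups. The difference from LPS was -1.28 ± 0.10 for SPIO-LPS (adjusted p = 5.24e-08) and -0.53 ± 0.10 for Silica-LPS (adjusted p = 0.00651).

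Ccl2 gave 11.24, 11.43 and 11.34 in SPIO-LPS, 11.79, 11.61 and 11.87 in Silica-LPS, and 12.13, 12.12 and 11.90 in LPS. The highest Silica-LPS array came close to the lowest LPS array. The difference from LPS was -0.71 ± 0.09 for SPIO-LPS (adjusted p = 1.65e-05) and -0.29 ± 0.09 for Silica-LPS (adjusted p = 0.104).

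All 4 members were called lower in SPIO-LPS, where 14.6% of genes were called lower, and 3 of 4 in Silica-LPS, where 0.976% were. The median difference of the members was -1.28 for SPIO-LPS, against 0.01 over all genes, and -0.48 for Silica-LPS, against 0.00 over all genes. Arrays of the groups did not overlap in any member, which held for 40.4% of all genes in the iron oxide comparison and 21.9% in the silica one. On the linear scale, Ccl2 averaged 2597 ± 169 signal units in SPIO-LPS, 3466 ± 318 in Silica-LPS and 4249 ± 369 in LPS (SD, n = 3 each). Ccl12 averaged 643 ± 107 units in SPIO-LPS, 1451 ± 31.1 in Silica-LPS and 1961 ± 33.5 in LPS.

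**Figure D2:**
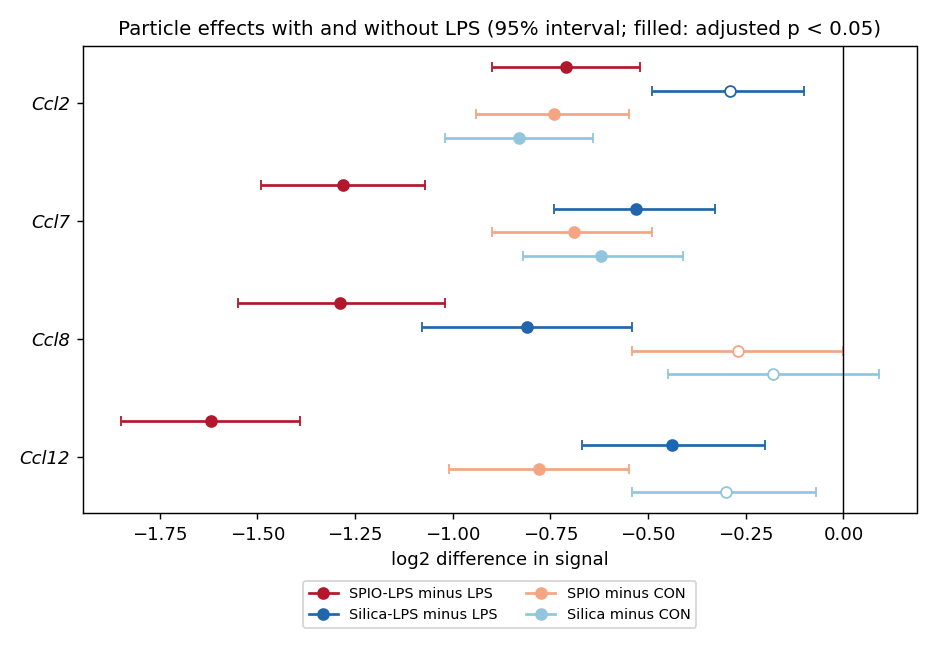
Log2 difference in signal (horizontal axis) of the 4 chemokines (rows) for each particle against its control with LPS and without LPS, with 95% intervals from limma; filled points had an adjusted p below 0.05. Points lie left of 0 throughout, and the SPIO-LPS difference runs from -0.71 for Ccl2 to -1.62 for Ccl12.

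Set against each other without LPS, the particles differed in Ccl12 alone among the members, which was 1.39-fold lower in SPIO than in Silica (difference -0.47 ± 0.11, adjusted p = 0.00419). In this comparison 11.6% of genes were called lower. For Ccl2 the difference of SPIO minus Silica was 0.09, with a 95% interval of -0.11 to 0.28 (adjusted p = 0.549). For Ccl7 it was -0.07, with an interval of -0.28 to 0.13 (adjusted p = 0.642), and for Ccl8 -0.09, with an interval of -0.36 to 0.17 (adjusted p = 0.643). Each of these 3 intervals held both negative and positive differences, so neither a direction nor equality of the particles was shown. The arrays of the particles overlapped in these 3 genes. For Ccl12 they did not overlap, as for 40.5% of all genes.

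With LPS all 4 members were lower after iron oxide than after silica, in a comparison that called 12.9% of genes lower. Their arrays did not overlap, as for 40.0% of all genes. Ccl12 was 2.28-fold lower in SPIO-LPS than in Silica-LPS (difference -1.19 ± 0.11, adjusted p = 8.67e-07), and only 19 genes had a more negative difference. Ccl7 was 1.68-fold lower (-0.75 ± 0.10, adjusted p = 2.82e-05) and Ccl2 1.33-fold lower (-0.41 ± 0.09, adjusted p = 0.00299). Ccl8 was 1.39-fold lower (-0.48 ± 0.13, adjusted p = 0.0109). Without the third SPIO-LPS array, the dimmest for Ccl8, that difference was -0.37 and did not pass (adjusted p = 0.0586).

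The interaction of a particle with LPS asks whether the particle's effect differed between the states with and without LPS. For iron oxide it was negative for Ccl8, Ccl12 and Ccl7, so that their LPS response after SPIO was smaller than after plain medium. It was -1.01 ± 0.18 for Ccl8 (adjusted p = 0.00144), -0.85 ± 0.15 for Ccl12 (adjusted p = 0.00193) and -0.59 ± 0.14 for Ccl7 (adjusted p = 0.0113). For Ccl2 it was 0.04, with a 95% interval of -0.24 to 0.31 (adjusted p = 0.921). The sign of this Ccl2 value was negative when any 1 of 4 arrays was left out. These 3 of 4 members called lower stand beside 5.07% of all genes called lower.

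The LPS response of Ccl8 was 2.15-fold after iron oxide (SPIO-LPS minus SPIO, 1.10 ± 0.13), 2.80-fold after silica (1.48 ± 0.13) and 4.34-fold after plain medium (2.12 ± 0.13). That of Ccl12 was 62.4-fold after iron oxide, 102-fold after silica and 112-fold after plain medium. Ccl12 was itself lower in SPIO than in CON, near the lower end of the scale, and a log2 response from such a start is understated, which can make the interaction more negative. For Ccl7 the response was 13.8-fold after iron oxide, 21.9-fold after silica and 20.7-fold after plain medium, and for Ccl2 23.6-fold, 33.5-fold and 23.1-fold in the same order. Each member still rose with LPS after each particle (adjusted p of 1.05e-06 for Ccl8 after iron oxide, the largest), in comparisons that called 27.3% of genes higher after iron oxide and 21.5% after silica. After silica, all genes split into 2662 called higher and 4442 lower, and into 3361 and 3554 with cyclic loess.

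**Figure D3:**
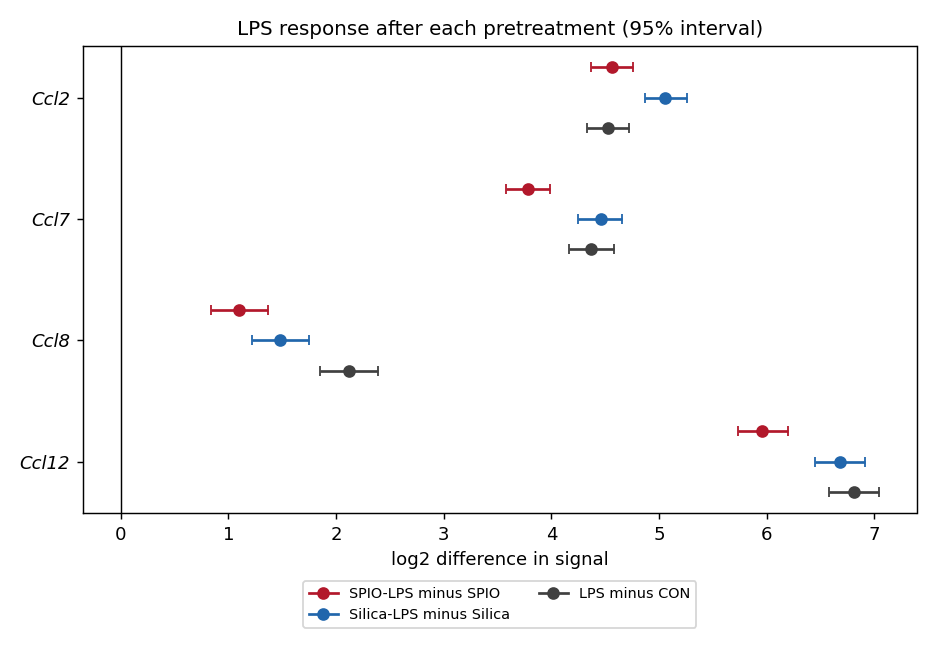
Log2 difference in signal with LPS minus without LPS (horizontal axis) of the 4 chemokines (rows) after iron oxide, silica or plain medium, with 95% intervals from limma. The response of Ccl8 runs from 1.10 after iron oxide to 2.12 after plain medium, and that of Ccl12 from 5.96 to 6.81.

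For silica no member's interaction passed in limma's test, and 2, those of Ccl2 and Ccl8, had an unadjusted p below 0.05. The values were -0.63 ± 0.18 for Ccl8 (adjusted p = 0.391), -0.13 ± 0.15 for Ccl12 (adjusted p = 0.915), 0.09 ± 0.14 for Ccl7 (adjusted p = 0.938) and 0.54 ± 0.13 for Ccl2 (adjusted p = 0.241). Only 0.0161% of all genes, 2 in number, were called in this comparison. The Ccl7 value turned negative without the second Silica array.

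Ordered by mean signal, Ccl7, Ccl8 and Ccl12 each ran from LPS through Silica-LPS, SPIO-LPS, CON and Silica to SPIO. Ccl2 had the same order except that Silica was lowest, at 6.69, below SPIO at 6.78. Neighbours that did not pass the adjusted test were Silica-LPS and LPS for Ccl2, the particle groups without LPS for Ccl2, Ccl7 and Ccl8, and Silica and CON for Ccl8 and Ccl12. Of these, Silica-LPS and LPS for Ccl2 did not overlap and had a 95% interval of the difference of -0.49 to -0.10, and Silica and CON for Ccl12 did not overlap and had one of -0.54 to -0.07. Silica and CON for Ccl8 also did not overlap, with an interval of -0.45 to 0.09, while the arrays of the particle groups overlapped. All other neighbours passed, with the step between SPIO-LPS and CON the largest in each gene. That step was 3.09 to 5.18 in Ccl2, Ccl7 and Ccl12. In Ccl8 it was 0.83, about the same as the 0.81 between LPS and Silica-LPS. Even after iron oxide, LPS left Ccl12 36.4-fold, Ccl2 14.1-fold, Ccl7 8.51-fold and Ccl8 1.78-fold above CON, all 4 called in a comparison that called 24.0% of genes higher.

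The members were more alike between groups than among the arrays of a group. Over the 18 arrays, with the mean of the 9 LPS arrays and that of the 9 others each subtracted, Pearson's r was 0.902 between Ccl7 and Ccl12, 0.878 between Ccl2 and Ccl7 and 0.679, the lowest, between Ccl2 and Ccl8. With all 6 group means subtracted, the pairs lay between -0.069 and 0.235. These are descriptions: the arrays share groups and normalization.

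Over the same 18 arrays, with the LPS means subtracted, the gene most like both Ccl2 and Ccl7 was Egr1, an immediate early transcription factor, with r of 0.902 to Ccl2 and 0.961 to Ccl7. Itpkb, an inositol trisphosphate kinase, followed for Ccl7 (0.956), and Ccl7 itself was the third most like Ccl2. The most like Ccl8 were Thbd, which encodes thrombomodulin (0.902), and Cd83, a marker of activated antigen-presenting cells (0.897). The most like Ccl12 were P2ry6, a receptor for the nucleotide UDP (0.971), and Ier2, an immediate early gene (0.969), and then Il4ra, the interleukin-4 receptor alpha chain (0.967).

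The receptors on the array changed in their own ways. Ccr2, the receptor of CCL2, CCL7 and CCL12, averaged 5.27 ± 0.33 in SPIO-LPS, 6.96 ± 0.15 in Silica-LPS and 7.09 ± 0.07 in LPS (SD, n = 3 each). Without LPS it averaged 7.09 ± 0.04 in SPIO, 9.05 ± 0.08 in Silica and 9.12 ± 0.10 in CON. Ccr2 was thus lower where the chemokines were higher with LPS, and lower where they were lower with iron oxide.

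Ccr2 fell 4.09-fold with iron oxide against CON (adjusted p = 4.36e-09), 3.51-fold in SPIO-LPS against LPS (adjusted p = 1.29e-08) and 4.09-fold with LPS against CON (adjusted p = 3.5e-10). Silica left it at a difference of -0.07 ± 0.12 from CON (adjusted p = 0.838). In the comparison of SPIO with CON only 2 genes had a more negative difference than Ccr2.

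Ccr1, which binds CCL7, averaged 8.50 ± 0.08 in SPIO-LPS, against 10.01 ± 0.03 in LPS, and 8.98 ± 0.06 in SPIO, against 10.17 ± 0.01 in CON. Its falls were 2.86-fold with LPS (adjusted p = 5.78e-12) and 2.27-fold without it (adjusted p = 1.24e-10), and it also fell 1.17-fold in Silica against CON (adjusted p = 0.0169). Ccrl2, a surface receptor that binds chemerin without signalling, rose 25.2-fold with LPS (adjusted p = 3.02e-18), and it was 1.51-fold higher in SPIO than in CON (adjusted p = 8.74e-07). Ccr3 rose 1.88-fold with LPS (adjusted p = 0.000141) at a dim signal of 4.53 in LPS, against 3.62 in CON. Ccr8, the receptor of CCL8, was dim, with group means between 3.43 and 3.98. It was called only in Silica-LPS against Silica (means of 3.98 and 3.43, adjusted p = 0.00551). The decoy receptors Ackr1, Ackr2 and Ackr4 were called in none of the 11 comparisons.

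**Figure D4:**
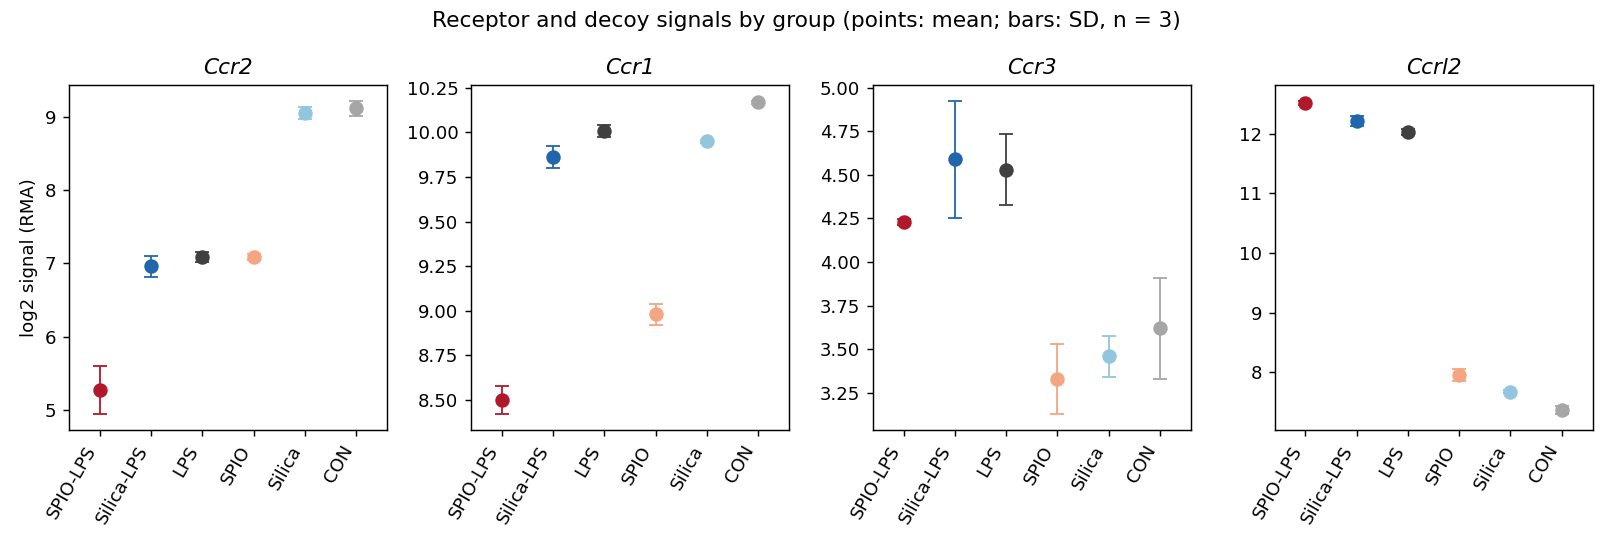
Log2 signal (RMA, vertical axis, its own range in each panel) of the receptors Ccr2, Ccr1 and Ccr3 and of Ccrl2 in the 6 groups, as mean with bars for the SD of 3 arrays. Ccr2 is lowest in SPIO-LPS at 5.27 and highest in CON at 9.12, and Ccrl2 is above 12 in each group with LPS.

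The other protein-coding genes of the cluster had dim signals and small differences. Ccl11, the eosinophil attractant eotaxin that lies between Ccl7 and Ccl12, averaged 3.02 in LPS and 2.99 in CON, and it was called in none of the 11 comparisons. Ccl1, next to Ccl8, averaged 4.31 in LPS and 3.96 in CON, with overlapping arrays (adjusted p = 0.044), and this call was lost with cyclic loess. Ccl1 was also called higher with LPS after iron oxide (4.26 in SPIO-LPS, 3.78 in SPIO, adjusted p = 0.00674) and after silica (4.16 in Silica-LPS, 3.79 in Silica, adjusted p = 0.0294).

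Of the 11 other CC chemokines measured, 8 rose and 1 fell with LPS, where 22.2% of all genes rose and 36.1% fell. Ccl5, Ccl4 and Ccl3, which attract T cells and monocytes, rose 177-fold, 123-fold and 85.6-fold. In SPIO against CON 1 rose (2 with cyclic loess) and 4 fell, where 19.6% of all genes rose and 14.2% fell. Ccl3 was 1.99-fold higher (adjusted p = 4.26e-08), while Ccl6, Ccl24 and Ccl5 were 1.48- to 1.51-fold lower. In SPIO-LPS against LPS 3 fell, led by the eosinophil attractant Ccl24 (2.03-fold, adjusted p = 9.17e-07), and Ccl20 rose 1.52-fold (adjusted p = 0.00165). Of all genes 18.2% rose and 14.6% fell in that comparison. The list's median difference there was -0.06, against -1.28 for the 4 monocyte chemoattractants and 0.01 for all genes.

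The type I interferon genes, many of them induced by LPS through the adaptor TRIF, gave another pattern of counts after iron oxide. Without LPS, 16 of 22 fell and 1 rose in SPIO against CON, where 14.2% of all genes fell and 19.6% rose. Among them were Mx1 (2.71-fold, adjusted p = 1.35e-05), Ifit3 (2.47-fold, adjusted p = 6.1e-08) and Cxcl10 (2.43-fold, adjusted p = 8.52e-06). With LPS, 7 fell and 3 rose in SPIO-LPS against LPS, led by the transcription factor Irf8 (1.94-fold lower, adjusted p = 2.84e-09) and Ifnb1 itself (1.50-fold lower, adjusted p = 0.00152). Of all genes 14.6% fell and 18.2% rose there.

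Their interaction of iron oxide with LPS was called positive for 11 genes and negative for 2, where 3.73% of all genes were called positive and 5.07% negative. It was 1.16 ± 0.25 for Mx1 (adjusted p = 0.00748) and 1.16 ± 0.22 for Cxcl10 (adjusted p = 0.00234), but -1.24 ± 0.08 for Irf8 (adjusted p = 9.62e-08), the sign seen in Ccl7, Ccl8 and Ccl12. Cxcl10 averaged 14.29 in LPS, near the highest signals of the arrays, which were 14.48 to 14.62. A fall at such signals is understated, which can make an interaction more positive, and the size of this was not tested. In Silica against CON 8 of these 22 fell and none rose, where 1.57% of all genes fell, and with LPS silica changed none of them past the threshold. With cyclic loess 1 gene in place of 3 was called higher in SPIO-LPS.

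**Figure D5:**
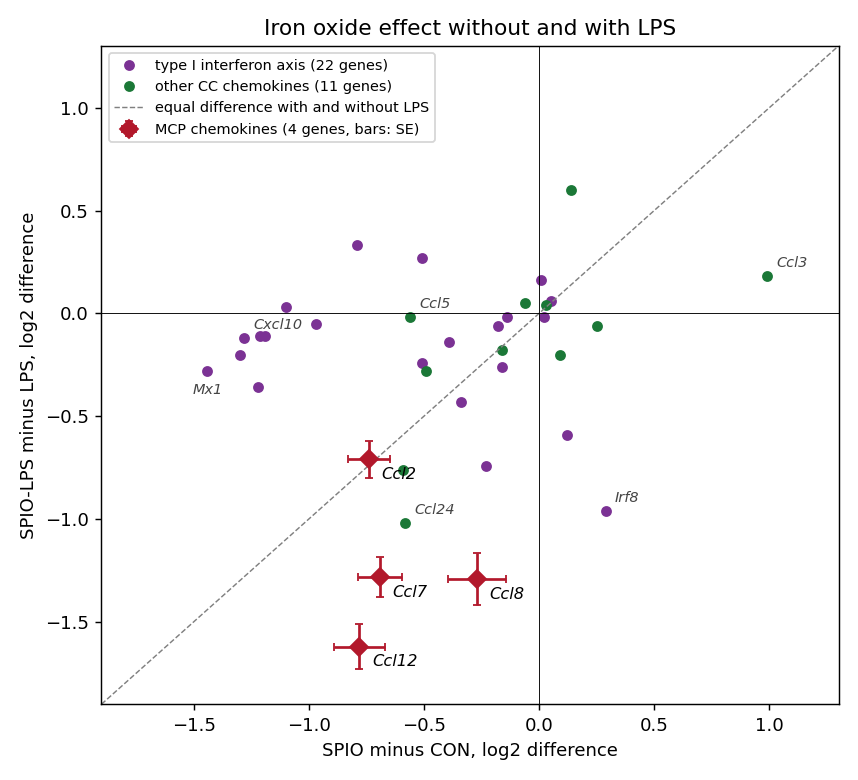
Log2 difference of SPIO minus CON (horizontal axis) and of SPIO-LPS minus LPS (vertical axis) for the 4 chemokines (diamonds with SE bars), 22 genes of the type I interferon axis and 11 other CC chemokines; the dashed line marks equal differences. Ccl7, Ccl8 and Ccl12 lie below the line, Ccl2 lies on it, and Mx1 and Cxcl10 lie above it.

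Of 13 NF-kB subunits and feedback genes, 12 rose with LPS, where 22.2% of all genes rose, among them the inhibitor homologue Nfkbiz (16.6-fold) and the subunit Rel (8.40-fold). In SPIO-LPS against LPS 3 rose and 2 fell, near the shares of 18.2% higher and 14.6% lower over all genes, with a list median of 0.03. The kinase subunit Ikbkg was 2.21-fold higher (adjusted p = 1.22e-10), while the coactivator Bcl3 was 1.59-fold lower (adjusted p = 1.49e-07) and Nfkbiz 1.25-fold lower (adjusted p = 0.0159). In Silica-LPS against LPS only Tnfaip3, a feedback inhibitor, was called (1.47-fold higher, adjusted p = 0.0205), where 1.89% of all genes rose.

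Of 11 LPS-sensing genes, Cd14, which hands LPS to its receptor, fell 1.74-fold in SPIO against CON (difference -0.80, adjusted p = 9.91e-10). Its interaction of iron oxide with LPS was 0.78 ± 0.06 (adjusted p = 3.54e-07), so this fall was not seen at that size with LPS. Cd14 averaged 13.65 in LPS, toward the upper end of the scale, where a fall can be understated and an interaction made more positive. The size of this was not tested. The only other called interaction of the list was negative, that of Myd88 (-0.28, adjusted p = 0.00655), where 3.73% of all genes were called positive and 5.07% negative. Tlr4 was 1.16-fold higher in SPIO than in CON (adjusted p = 0.00287) and 1.16-fold higher in SPIO-LPS than in LPS (adjusted p = 0.00257). It was also higher in Silica than in CON, by 0.21 on the log2 scale (adjusted p = 0.0273). In SPIO-LPS against LPS 4 of the list rose and 3 fell, beside 18.2% higher and 14.6% lower over all genes.

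Of 11 mRNA decay genes, 2 rose and 3 fell in SPIO-LPS against LPS, beside 18.2% higher and 14.6% lower over all genes, so that the share that rose was at the background. The falls included Zfp36l1 (2.25-fold, adjusted p = 2.1e-09) and Zfp36, which encodes tristetraprolin, a protein that binds AU-rich messages and speeds their decay (1.45-fold, adjusted p = 3.06e-06). Silica with LPS changed none of the LPS-sensing or decay genes past the threshold.

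Markers of other cells moved with the iron oxide results as well. Of 15 fibroblast and stroma markers 11 fell and none rose in SPIO-LPS against LPS, and 9 fell and none rose in SPIO against CON. Over all genes 14.6% fell and 18.2% rose with LPS in these groups, and 14.2% fell and 19.6% rose without it. Their summed signal ranged over 21210 to 21870 units in SPIO-LPS, against 26110 to 27520 in LPS, and over 26830 to 27610 in SPIO, against 32780 to 33470 in CON. It was 27710 to 28140 in Silica-LPS and 35340 to 37590 in Silica, above the controls.

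Of 9 neutrophil markers 6 fell and 1 rose in SPIO-LPS against LPS, and 7 fell and 1 rose in SPIO against CON, beside 14.6% and 14.2% of all genes called lower in these comparisons. Their sum was 15300 to 15650 units in SPIO-LPS, against 20310 to 20810 in LPS, and 15510 to 16080 in SPIO, against 21420 to 22790 in CON. After silica none of them was called, with or without LPS, although 2 were called lower in Silica against CON with cyclic loess.

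Of 13 markers of monocytes and macrophages 8 fell and 2 rose in SPIO-LPS against LPS, and 10 fell and 2 rose in SPIO against CON. Over all genes 14.6% and 14.2% were called lower in these comparisons, and 18.2% and 19.6% higher. Their sum was 60830 to 61950 units in SPIO-LPS, against 64700 to 65070 in LPS, and 56510 to 57110 in SPIO, against 61900 to 62610 in CON. Among those that fell in SPIO were Cx3cr1 (3.28-fold, adjusted p = 2.03e-08) and F13a1 (2.64-fold, adjusted p = 5.74e-11), genes of monocytes and young macrophages. The part of these markers in the chemokine differences was not tested.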

How the data were processed

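RNA of 18 cultures was measured on Affymetrix arrays, 1 per culture, from cRNA made with an oligo-dT primer, per the labels' protocols. The authors deposited 1 log2 signal for each probe set and array. Per the submitters' processing notes they came from RMA, which corrects background, equalizes the distributions of arrays and summarizes probes. Its settings and version are stated nowhere in the sources used here. The values hold no detection calls, so precision rests on how many arrays there are, and differences near either end of the range come out too small.

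Of 22690 probe sets, 20380 had 1 gene symbol in the annotation of the array, 691 several, 1555 none, and 64 were controls. A gene (12393 in all) was tested on its brightest probe set by mean signal. In R 4.3.3 with limma 3.58.1, group means were fitted over the 18 arrays (lmFit, contrasts.fit, eBayes), with 11 main contrasts. Adjustment was by Benjamini-Hochberg over all genes of a contrast, and a gene was called at an adjusted p below 0.05. Except where an alternative is named, every adjusted p and SE in the text comes from this limma model, which was tested on simulated data.

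The members and lists were chosen with earlier results of these data known. All members, receptors and cluster genes were named. From each other list, at most 4 genes per contrast could be named, those called with the greatest absolute difference, and from the 5 genes most like a member the first ones. Promoters were searched with Python 3.11.15 and aligned with Biopython 1.88. Alternatives were array weights, cyclic loess, the mean of probe sets, each probe set tested, the brightest genes (without the dimmest 33.3%), a robust variance trend, a replicate block, the compared groups alone and each array left out.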

Additional observations from a re-analysis of the deposited data

Results flagged for a closer look

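The effect of iron oxide on 3 of the chemokines differed between cells with LPS and cells without it, by limma's interaction test over all genes. The interaction was -1.01 for Ccl8 (SE 0.18, adjusted p = 0.00144), with a particle effect of -1.29 with LPS and -0.27 without it. It was -0.85 for Ccl12 (SE 0.15, adjusted p = 0.00193), with effects of -1.62 and -0.78, and -0.59 for Ccl7 (SE 0.14, adjusted p = 0.0113), with effects of -1.28 and -0.69. Without LPS, Ccl8 (means of 4.72 in SPIO and 4.99 in CON) and Ccl12 (3.35 and 4.13) were dim. A particle effect at such signals is understated, which can make these interactions more negative, and its size was not tested. Leaving out any 1 array kept these calls, at -1.16 to -0.83 for Ccl8, -0.97 to -0.73 for Ccl12 and -0.68 to -0.47 for Ccl7. Groups of 3 arrays were not searched for single outlying arrays.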

How the results depend on the processing

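Under the alternatives, chemokine contrasts kept their direction and their side of the threshold 702 times, lost a call 10 times, gained one 2 times and changed sign 6 times. Much of this tally was fixed in advance, since each member has a single probe set and each group holds every replicate number once. The block, the compared groups alone, the trend, the filter and both probe set alternatives could move only a member's adjusted p. Array weights, cyclic loess and left-out arrays could also change its difference. The silica call of Ccl12 with LPS (-0.44) was lost with the replicate block (-0.44, adjusted p = 0.0627), with every probe set (-0.44, adjusted p = 0.0525) and without any of its arrays (-0.45 to -0.42). That of Ccl8 was lost with the compared groups alone (-0.81, adjusted p = 0.0879). Ccl8 in SPIO against CON passed with the compared groups alone (-0.27, adjusted p = 0.0104) and with array weights (-0.28, adjusted p = 0.0492). In SPIO-LPS against Silica-LPS, leaving out arrays gave Ccl8 differences of -0.55 to -0.37. Uncalled values near 0 changed sign as arrays were left out. The iron oxide interaction of Ccl2 ranged from -0.04 to 0.08, with -0.02 without the first CON, -0.04 without the third LPS, and -0.01 without the first SPIO or the second SPIO-LPS array. The silica interaction of Ccl7 ranged from -0.01 to 0.15, and Ccl7 in SPIO against Silica from -0.19 to 0.02.

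Counts over all genes moved more. Silica against CON called 498 genes, 110 with the compared groups alone, 850 with the variance trend, 755 without the dimmest 33.3% of genes, 919 with array weights and 203 to 381 without 1 array. Silica-LPS against LPS called 355, 63, 577 and 536 under the first 4 of these and 186 to 333 without 1 array. The silica interaction called 2 genes, 0 with the replicate block, the compared groups alone or every probe set, 40 with the trend, 5 without the dimmest genes, 1 with the mean of probe sets or with loess and 0 to 2 without 1 array. With every probe set, 11296 were called for LPS against CON (7216 genes), 6619 for SPIO against CON (4189), 6162 for SPIO-LPS against LPS (4058), 11199 for LPS after silica (7104) and 12375 after iron oxide (7938), since more features were tested. The cause of the other shifts was not tested. The replicate block changed no other call of a member. Deviations from group means correlated between same-numbered arrays at medians of -0.042, -0.014 and -0.019, against -0.002 for arrays of different number and group. These values gave no sign that replicate numbers pair the arrays, but they cannot show that the cultures were unpaired.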
